A study of Mus musculus with 12 samples.

Results

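The 9 genes described here carry out or sense steps of vitamin A handling in mouse liver: the retinol and retinal oxidoreductases Rdh1, Rdh7, Rdh10, Rdh11 and Dhrs3, the esterifying enzyme Lrat, the carotenoid-cleaving enzyme Bco1, the retinoic acid hydroxylase Cyp26a1 and the receptor Rarb. They were taken as every probe whose RefSeq record belongs to one of these genes, which gave 10 of the 39429 probes and 9 of the 20283 gene symbols on the array. The set was chosen by the 1-day ratio of Rdh1, which was among the highest on the arrays, so all values at 1 day, and those of Rdh1 on the other gavage days, are given as a description without a test.

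The arrays compared livers of db/db mice, which lack a functional leptin receptor and become obese and diabetic, given molecular hydrogen (H2) with livers of db/db mice without it. All animals were males of 8 weeks. MgH2, which releases H2 in contact with water, was given by gavage once a day for 1, 3 or 7 days at 0.9 mg/kg according to the labels (the methods text states other doses), and Mg(OH)2 served as its control. Water saturated with H2 at 0.8 mM was drunk for 14 days, with degassed water as its control. Each group had 3 arrays, and on each array the red channel (Cy5) held RNA pooled from 3 treated livers and the green channel (Cy3) RNA pooled from 3 control livers, so an array averages over 3 animals and the spread between arrays is a spread between pools. The dyes were never swapped, and a probe that favours 1 dye therefore cannot be told apart from a treatment effect in any single comparison. Such a bias cancels in the difference of time points only where it is the same on the arrays compared, which was not tested. Agent, route, type of control and duration changed together between 7 and 14 days, as did slide, scan and software version, and these cannot be told apart.

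Retinol reaches the liver as an ester, is hydrolysed and re-esterified by LRAT for storage in stellate cells, and leaves the liver bound to RBP4. Inside cells, retinol is oxidised reversibly to retinal, some enzymes of the family working in the opposite direction as retinal reductases, and retinal is oxidised irreversibly to retinoic acid. Retinoic acid binds the receptors RARA, RARB and RARG, which act with RXR partners on DNA, and is cleared by CYP26 enzymes. Cyp26a1, Rarb, Lrat and Dhrs3 are known as genes that retinoic acid itself induces in several tissues.

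Values are log2 ratios of the treated over the control signal, so that 1 is a doubling and 0 no difference. Between 51.8 and 56.6% of the spots were well above background in both channels of an array, and no spot was saturated. All 10 probes of the 9 genes exceeded the background of both dyes on each of the 12 arrays. Of the probes above background, limma (two-sided, Benjamini-Hochberg adjusted p under 0.05 over all of them) called 2388 higher and 2149 lower at 3 days, 2973 higher and 2775 lower at 7 days, and 1005 higher and 799 lower at 14 days. When each channel was divided by its total, the split became 1759 higher and 2821 lower at 3 days, 2382 and 3351 at 7 days, and 790 and 1175 at 14 days, and the median of all probes moved by less than 0.1. The control channels of the gavage arrays correlated at 0.9974 to 0.9989 between arrays of the same replicate number on other days, and at 0.9949 to 0.9971 between arrays of the same day, whereas the treated channels correlated at 0.9930 to 0.9966 and at 0.9953 to 0.9977. The labels name a control for each day. The 3 gavage comparisons were treated as sharing their controls, so their values are set side by side, as a description of each array, and no agreement between them is tested.

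Rdh1, a retinol dehydrogenase that also acts on steroids, had a higher treated than control signal on all 12 arrays. So did 1336 of the 18397 probes above background on every array (7.26%), while 1067 were lower on all 12. After 1 day of MgH2 the log2 ratios were 1.18, 0.83 and 0.67 (mean 0.89 ± 0.26, SD, n = 3), which ranked Rdh1 13th of 19660 probes above background. The ratios were 0.81, 0.64 and 0.78 at 3 days (0.74 ± 0.09), and 0.70, 0.67 and 0.94 at 7 days (0.77 ± 0.15). The 3 groups overlapped, and because of the possible shared controls these values are given without a test.

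After 14 days of H2-water the Rdh1 ratios were 0.64, 0.62 and 0.69, a mean of 0.65 ± 0.03 (SD, n = 3) or 1.57-fold. This passed the test (SE 0.0855, adjusted p = 0.002 by limma), and it passed with any of the 3 arrays left out (adjusted p at most 0.027). A constant dye bias of this probe cannot be told apart from a rise with both agents.

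The level of Rdh1 differed between the gavage and the water experiments far more than between treated and control livers. The control signal lay between 17.7 and 28.7 units on the 9 gavage arrays and between 467 and 568 on the 3 arrays of the water experiment, and the treated signal between 31.5 and 50.4 and between 719 and 887. After centring each array on its median, the control level was 4.39 log2 units higher at 14 days than on the gavage arrays, and the treated level 4.25 higher. Only 28 other probes of 18397 had a control difference at least as large. For the 8 other genes the same difference of control levels lay between -0.74 and 0.17. Since the lowest signals called above background in the control channel of the gavage arrays were 8.61 to 12.3 units, Rdh1 was read close to the floor there: after normexp correction, which added an offset of 50 units, and loess, its mean ratio was 0.14 at 3 days and 0.19 at 7 days, and 0.59 at 14 days (adjusted p = 7.8e-05 by limma).

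**Figure D1:**
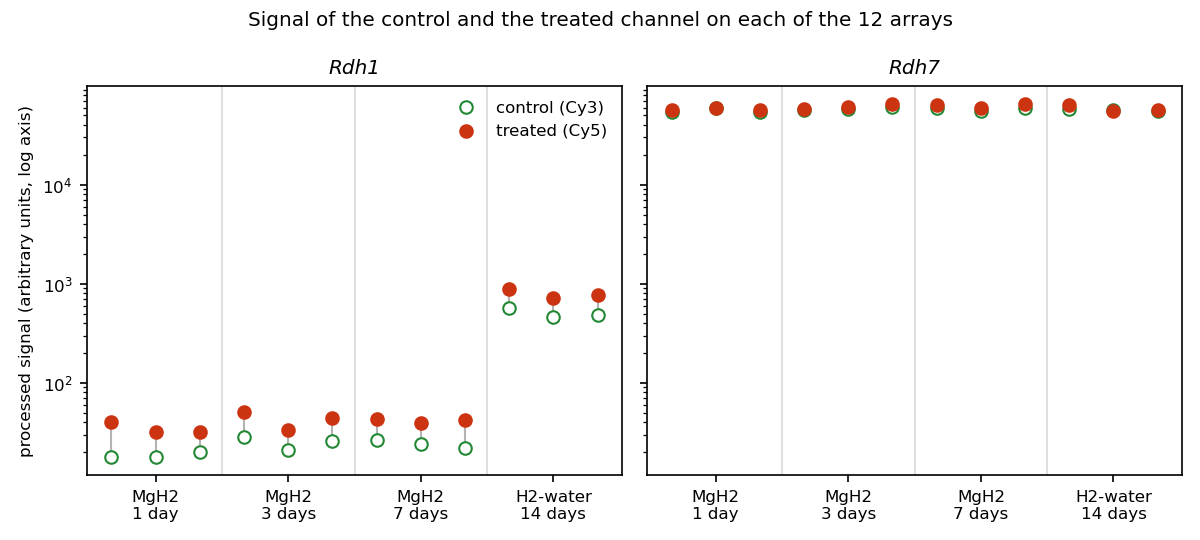
Processed signal (arbitrary units, log axis) of Rdh1 and Rdh7 in the control channel (open) and the treated channel (filled) on each array, 3 arrays per group; grey lines join the channels of an array. Rdh1 sat at 17.7 to 50.4 units on the gavage arrays and at 467 to 887 units on the H2-water arrays, with the treated signal above the control on all 12, while Rdh7 stayed at one level.

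Rdh1 lies in a cluster of related dehydrogenase genes on chromosome 10, in the order Rdh1, Rdh9, Rdh16, the pseudogene Rdh18-ps, Rdh19, Rdh16f2, an lncRNA and Rdh7 in the RefSeq annotation of GRCm38.p6. None of the neighbours measured showed the ratio of Rdh1 at 14 days. Rdh9 had a mean log2 ratio of 0.18 ± 0.13 (adjusted p = 0.35), Rdh16 of 0.27 ± 0.12 (adjusted p = 0.14), and Rdh16f2 of -0.24 ± 0.23 (adjusted p = 0.21, all SD, n = 3, limma). Rdh19 was above background on all arrays only at 14 days (0.15 ± 0.07, adjusted p = 0.77 by limma). Whether the Rdh1 probe also binds transcripts of these neighbours was not tested, as probe sequences were not used here.

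The genes whose ratios followed Rdh1 most closely over the 12 arrays, among 11910 probes with a gene symbol and a spread at least 0.5 times that of Rdh1, were Mog (Pearson r = 0.905), Zfp947 (0.847), Lcorl (0.842), Ripply2 (0.840) and Tnni2 (0.829). Their ratios spanned 0 (Mog from -0.15 to 0.30), unlike those of Rdh1. The arrays share dyes and, within gavage, possibly controls, so these correlations describe the 12 arrays only. They include the 1-day ratios of Rdh1, by which the set was chosen, and gavage values read close to the floor. The genes named are the highest of the 11910 probes compared, and their likeness to Rdh1 was not tested.

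Rdh7, a close relative of Rdh1 that also acts on steroids, had a control level of 15.7 to 15.9 log2 units on all arrays. Its mean ratio was 0.07 ± 0.04 at 3 days (adjusted p = 0.15), 0.12 ± 0.02 at 7 days (SE 0.0344, adjusted p = 0.023) and 0.04 ± 0.06 at 14 days (adjusted p = 0.54, SD, n = 3, limma), after 0.04 at 1 day. The 7-day ratios were 0.11, 0.11 and 0.15, and the call was lost with any of these arrays left out (adjusted p 0.069 to 0.12 by limma). Rdh10, which makes retinal from retinol, had mean ratios of -0.04 ± 0.23, 0.01 ± 0.17, 0.10 ± 0.08 and 0.15 ± 0.07 at 1, 3, 7 and 14 days (SD, n = 3) and was not called at any time tested (adjusted p at least 0.32 by limma).

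Among the 8 genes other than Rdh1, 4 fell and none rose at 3 days, where 11.1% of all probes tested were called lower and 12.3% higher (23.4% in all). At 7 days 3 fell and 1 rose, where 14.3% were called lower and 15.3% higher (29.5% in all). At an unadjusted p under 0.05, 4 of the 8 passed at 3 days and 5 at 7 days, as did 36.8% and 41.3% of all probes. At 14 days none of the 8 was called by limma and none had an unadjusted p under 0.05, where 8.84% of all probes were called (4.92% higher and 3.91% lower) and 24.4% had an unadjusted p under 0.05. The normexp alternative called 1, Rdh7 (0.13, adjusted p = 0.031). The median of the 8 ratios was -0.24 at 3 days, -0.26 at 7 days and 0.09 at 14 days, beside medians of all probes tested of 0.0022, 0.0061 and -0.0049. The 4 genes that fell at 3 days were the retinal reductases Rdh11 and Dhrs3, Lrat and Cyp26a1.

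**Figure D2:**
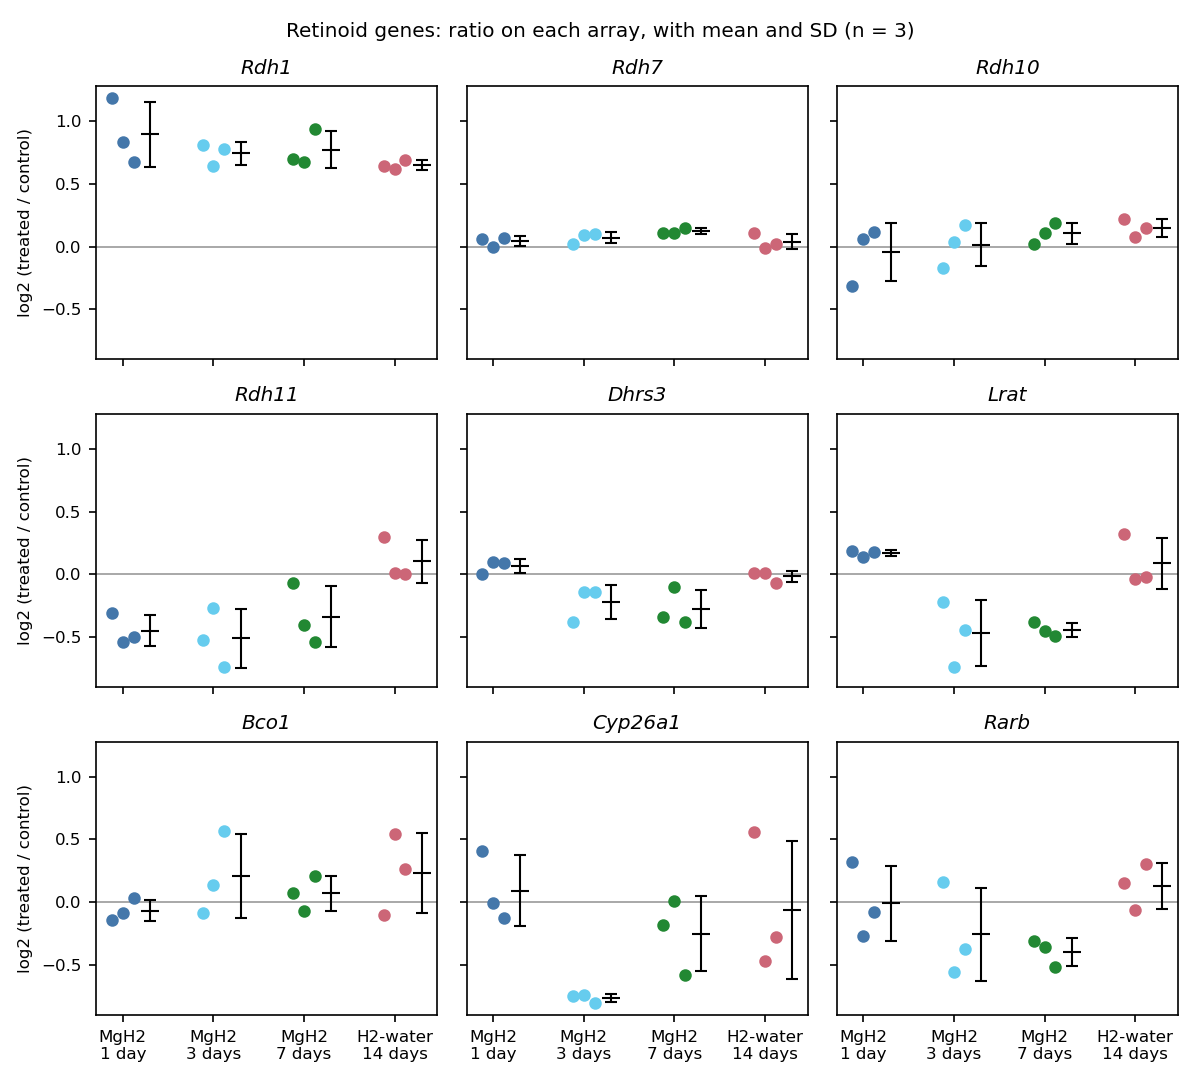
Log2 ratio of treated over control signal on each array (points) for the 9 genes, with the mean and SD of 3 arrays (bars), after 1, 3 and 7 days of MgH2 and 14 days of H2-water. Rdh1 was above 0 on every array, Cyp26a1 sat at -0.80 to -0.74 on the 3-day arrays, and Lrat passed from 0.14 to 0.19 at 1 day to below 0 on every 3-day and 7-day array.

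Rdh11 encodes an oxidoreductase that prefers NADPH and reduces retinal to retinol. Its ratios were -0.31, -0.54 and -0.50 at 1 day, -0.52, -0.27 and -0.74 at 3 days, -0.07, -0.40 and -0.54 at 7 days, and 0.30, 0.01 and 0.00 at 14 days. All 9 gavage arrays were below 0 and all 3 water arrays at or above it. The mean at 3 days was -0.51 ± 0.24 or 0.701-fold (SE 0.106, adjusted p = 0.0082), and at 7 days -0.34 ± 0.24 or 0.792-fold (SE 0.106, adjusted p = 0.037, SD, n = 3, limma). Without replicate 3 the adjusted p became 0.06 at 3 days, and without replicate 2 or 3 it became 0.14 or 0.23 at 7 days (limma). The 14-day ratio was 0.44 higher than that at 7 days (95% interval 0.11 to 0.77, adjusted p = 0.1 by limma).

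Dhrs3, a retinal reductase that works together with RDH10, showed 0.00, 0.10 and 0.09 at 1 day, -0.38, -0.14 and -0.14 at 3 days, -0.34, -0.10 and -0.38 at 7 days and 0.01, 0.01 and -0.07 at 14 days. The 3-day and 7-day arrays were all below those of 1 and 14 days. Taking each of these pairs of days alone, 8.87 to 15.2% of all probes did so. The mean was -0.22 ± 0.14 at 3 days (0.858-fold, SE 0.0617, adjusted p = 0.028) and -0.27 ± 0.15 at 7 days (0.827-fold, adjusted p = 0.0091, SD, n = 3, limma). The 3-day call was lost without any one of its arrays (adjusted p 0.053 to 0.17), and the 7-day call without replicate 1 (0.061) or 3 (0.075). At 14 days the mean was -0.02 ± 0.04 (adjusted p = 0.91 by limma).

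Lrat esterifies retinol and is expressed in the liver mainly by stellate cells, the vitamin A store. Its ratios were 0.19, 0.14 and 0.18 at 1 day, -0.22, -0.74 and -0.44 at 3 days, -0.38, -0.45 and -0.49 at 7 days, and 0.32, -0.04 and -0.02 at 14 days. The 3-day and 7-day arrays were all below the 1-day and the 14-day arrays, as for 8.87 to 15.2% of all probes in each of these pairs of days alone. The mean was -0.47 ± 0.26 at 3 days (0.724-fold, SE 0.0904, adjusted p = 0.0063) and -0.44 ± 0.06 at 7 days (0.737-fold, adjusted p = 0.0057, SD, n = 3, limma). Lrat was the only 1 of the 8 genes whose calls at both times held when any single array of the group was left out (adjusted p at most 0.045), although at 3 days it was not called in a fit of the 3-day arrays alone (adjusted p = 0.1 by limma). These gavage times may share controls, so the calls are not independent of each other. The 3-day value was -0.22 on the slide with 1 such array and -0.59 on that with 2, and the 7-day value -0.42 on the slide with 2 arrays and -0.49 on that with 1.

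Lrat was also the only 1 of the 8 called in the difference of 14 days and 7 days, 0.53 (SE 0.127, 95% interval 0.24 to 0.81, adjusted p = 0.039 by limma), where 6.61% of all probes were called (3.45% higher and 3.15% lower). At an unadjusted p under 0.05, 4 of the 8 passed, as did 24.8% of all probes. That call was lost when any 1 of the 6 arrays was left out (adjusted p 0.071 to 0.13 by limma, values 0.41 to 0.59). The difference of 14 and 3 days, chosen after seeing the data, was 0.55 (adjusted p = 0.053), and none of the 8 genes was called in it by limma, where 2.43% of all probes were (1.23% higher and 1.21% lower). At an unadjusted p under 0.05, 4 of the 8 passed, as did 20.5% of all probes. For 4 of the 8 genes, Rdh11, Lrat, Rarb and Dhrs3, all water arrays were above all 7-day arrays, as for 15.2% of all probes, and for 1, Rdh7, all were below, as for 17.2%. In the difference of 7 and 3 days limma called none of the 8 genes, none had an unadjusted p under 0.05, and no probe at all was called (0%), while 4.74% of all probes had an unadjusted p under 0.05. All 7-day arrays were above all 3-day arrays for 2 of the 8, Rdh7 and Cyp26a1, as for 4.27% of all probes, and below for none, as for 3.96%. All water arrays were above all 3-day arrays for Rdh11, Lrat, Cyp26a1 and Dhrs3 (12.8% of all probes) and below for none (14.5%). Against the 1-day arrays, which took part in choosing the set, all 3-day arrays were lower for Lrat, Cyp26a1 and Dhrs3 (8.87% of all probes) and higher for none (10.4%). All 7-day arrays were lower than the 1-day arrays for Lrat, Rarb and Dhrs3 (13.2% of all probes) and higher for Rdh7 (15.3%).

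Bco1 cleaves beta-carotene into retinal. Its ratios scattered around 0, from -0.14 to 0.03 at 1 day, -0.09 to 0.57 at 3 days, -0.07 to 0.21 at 7 days and -0.10 to 0.54 at 14 days, and it was not called at any time tested (adjusted p at least 0.28 by limma). Its control level was 4.2 to 5.2 log2 units over all arrays, about as low as that of Rdh1 on the gavage arrays. The lack of a call is therefore no measure of an absence of change.

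Cyp26a1, the hydroxylase that clears retinoic acid, showed the largest mean change of the 8 genes, at 3 days, and was not called at 7 or 14 days. Its ratios were 0.41, -0.01 and -0.13 at 1 day, -0.75, -0.74 and -0.80 at 3 days, -0.18, 0.01 and -0.58 at 7 days and 0.56, -0.47 and -0.28 at 14 days. The 3-day arrays lay below all others. Taking each pair of days alone, 3-day arrays were all below the 1-day, 7-day and 14-day arrays for 8.87%, 4.27% and 12.8% of all probes. The 3-day mean was -0.76 ± 0.03, a 0.590-fold level (SE 0.179, adjusted p = 0.014), while 7 days gave -0.25 ± 0.30 (adjusted p = 0.32) and 14 days -0.06 ± 0.55 (adjusted p = 0.87, SD, n = 3, limma). The SE is far wider than the spread of the 3-day arrays, because limma shares the wider spread of the other groups, and the 3-day call was lost without any one of its arrays (adjusted p 0.055 to 0.066 by limma). The difference of 7 and 3 days was 0.51 (95% interval -0.05 to 1.07, adjusted p = 1 by limma), and within the slide that held 2 arrays of each day it was 0.68.

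Rarb encodes a retinoic acid receptor. On its brighter probe the ratios were 0.32, -0.27 and -0.08 at 1 day, 0.16, -0.56 and -0.37 at 3 days, -0.31, -0.36 and -0.52 at 7 days and 0.15, -0.06 and 0.30 at 14 days. The 7-day mean was -0.40 ± 0.11 (SE 0.137, adjusted p = 0.052), just outside the threshold. The other probe gave -0.41 ± 0.09 (adjusted p = 0.035), and with the replicate number as a block the brighter probe gave adjusted p = 0.043 (SD, n = 3, limma). With any one of the 7-day arrays left out, the brighter probe was not called (adjusted p 0.12 to 0.22 by limma). At 3 days the means were -0.26 ± 0.37 and -0.22 ± 0.38 (adjusted p = 0.2 and 0.24 by limma). Leaving out each 3-day array in turn gave -0.47 to -0.10 on the brighter probe (adjusted p 0.044 to 0.7 by limma). The value of -0.47 came without replicate 1, whose ratio was above 0. Its receptor relatives were not called at 3, 7 or 14 days: Rara had -0.26 ± 0.20 at 3 days (adjusted p = 0.07), Rarg 0.22 ± 0.11 at 7 days (adjusted p = 0.088) and Rxra -0.13 ± 0.04 at 14 days (adjusted p = 0.12, SD, n = 3, limma).

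Retinoic acid receptors bind pairs of hexamers on DNA, and pairs in the same orientation with 5 bases between them are the classical response element. Sequences from 250 bases before to 50 after each RefSeq start (GRCm38.p6) were searched on both strands for 2 hexamers, each AGGTCA or AGTTCA or GGGTCA or GGTTCA, in the same orientation. With a spacer of 5 bases, 32 of 32851 promoters (0.0974%) held such a pair, among them those of Cyp26a1 and Rarb. With a spacer of 1 base, a form that RXR heterodimers such as those of the PPARs bind, 73 (0.222%) did, among them Bco1. With a spacer of 2 bases, 88 (0.268%) did, and none was of a gene described here. Promoters were listed for 8 of the 9 genes, Rdh10 not among them. The 3 matching stretches are shown in the direction of the gene because Cyp26a1 and Rarb carry the 5-base spacing of the retinoic acid receptors and Bco1 the 1-base spacing, with the matched pair in capitals:
Cyp26a1 (chr19:37697716-37697807, + strand): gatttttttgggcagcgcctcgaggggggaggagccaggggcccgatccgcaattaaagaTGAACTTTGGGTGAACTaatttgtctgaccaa
Rarb (chr14:16575477-16575589, - strand): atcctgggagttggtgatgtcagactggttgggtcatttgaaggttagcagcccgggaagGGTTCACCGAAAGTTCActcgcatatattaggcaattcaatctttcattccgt
Bco1 (chr8:117095749-117095864, + strand): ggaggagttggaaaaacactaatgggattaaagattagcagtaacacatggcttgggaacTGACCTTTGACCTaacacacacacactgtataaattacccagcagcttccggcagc
The pair lies 32 to 16 bases before the start in Cyp26a1, on the opposite strand, 53 to 37 bases before the start in Rarb, and 56 to 44 bases before the start in Bco1, on the opposite strand. A match describes these letters only. Of the 31 genes with the 5-base spacing, 10 had a probe and 3 were above background at 3 days: Cyp26a1 fell, and Rarb (-0.26) and Blvrb (-0.08, adjusted p = 0.21 by limma) were not called.

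Beyond these genes, 61 further genes of retinoid handling in 6 groups had a probe. Of these, 45 were above background at 3 days, with 6 called higher and 9 lower, where 12.3% and 11.1% of all probes were. At 7 days 8 were called higher and 8 lower of 45 (15.3% and 14.3% of all probes), and at 14 days 2 higher and none lower of 47 (4.92% and 3.91%). The 13 genes never above background on all arrays of a group tested included the retinal dehydrogenase Aldh1a2, the retinol-binding protein of the intestine Rbp2 and the membrane receptor for RBP4 Stra6. These lists were drawn up with earlier results of these data known.

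For uptake, transport and binding, 2 of 6 genes were called higher and 1 lower at 3 days, and 3 higher and 1 lower at 7 days. Rbp4, the carrier that takes retinol from the liver to the blood, rose by 0.35 ± 0.06 at 3 days and 0.37 ± 0.10 at 7 days (adjusted p = 0.0011 and 0.0006, SD, n = 3, limma), with ratios of 0.29 to 0.39 and 0.25 to 0.42. Its plasma partner Ttr rose by 0.22 at 7 days (adjusted p = 0.026 by limma). Fabp5, which can carry retinoic acid to another class of nuclear receptor, was at -0.49 and -0.84 (adjusted p = 0.037 and 0.0025), and Scarb1, a lipoprotein receptor that takes up carotenoids, at 0.31 and 0.32 (adjusted p = 0.0034 and 0.0018 by limma). The second Scarb1 probe gave 0.21 (adjusted p = 0.071) and 0.23 (adjusted p = 0.044).

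For storage, ester hydrolysis and carotenoid cleavage, 1 of 9 genes was called higher and 2 lower at 3 days, and 1 each at 7 days. Pnpla2, a triglyceride lipase that can hydrolyse retinyl esters, had ratios of 0.36 to 0.42 at 3 days and 0.45 to 0.67 at 7 days (means 0.39 and 0.55, adjusted p = 0.0011 and 0.0001 by limma). The carboxylesterases Ces1e and Ces1f had means of -0.57 (adjusted p = 0.029) and -0.24 (adjusted p = 0.018) at 3 days and of -0.47 (adjusted p = 0.053) and -0.26 (adjusted p = 0.0086) at 7 days (limma). Lpl, which frees retinol from circulating esters, was called at 14 days on its brighter probe (0.48 ± 0.28, SD, n = 3, adjusted p = 0.025), whereas its other probe gave 0.05 (adjusted p = 0.77) and was called lower at 3 days (-0.28, adjusted p = 0.036) and 7 days (-0.34, adjusted p = 0.012 by limma), so the probes of this gene disagree.

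For the other retinol and retinal oxidoreductases, 2 of 15 were called higher and 4 lower at 3 days, and 3 each at 7 days. Adh4, an alcohol dehydrogenase with high activity on retinol, was at -0.49 ± 0.21 and -0.59 ± 0.29 (adjusted p = 0.016 and 0.0048, SD, n = 3, limma). The aldo-keto reductase Akr1b7 was at 0.61 and 0.80 (adjusted p = 0.026 and 0.0064), and Rdh13, a mitochondrial enzyme, at 0.54 and 0.61 (adjusted p = 0.036 and 0.018 by limma). Smaller negative values were called for Dhrs4 (-0.12 and -0.21) and Akr1b8 (-0.20 and -0.22) at both times and for Adh5 (-0.16) at 3 days. Rdh12, a retinal reductase, was called at 7 days with 0.10 ± 0.01 (SD, n = 3, adjusted p = 0.026 by limma). None of the 17 measured at 14 days was called by limma, and 4 had an unadjusted p under 0.05, as did 24.4% of all probes.

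Among genes of retinoic acid synthesis and clearance, Aldh1a1, the main hepatic enzyme that oxidises retinal to retinoic acid, was called higher at 3 days (0.21 ± 0.08), 7 days (0.28 ± 0.02) and 14 days (0.29 ± 0.06, SD, n = 3, adjusted p = 0.0042, 0.00062 and 0.0016 by limma). Its ratios at 1 day were 0.06 to 0.07, below every ratio of the later times. The difference of 3 minus 14 days was -0.08 (adjusted p = 0.42) and of 7 minus 14 days -0.01 (adjusted p = 0.95 by limma). Aldh8a1 was at -0.21 and -0.18 (adjusted p = 0.0064 and 0.0098) and Aldh1a7 at -0.15 at 7 days (adjusted p = 0.024). None of the 7 receptors and corepressors other than Rarb was called by limma at 3, 7 or 14 days. At each time 3 of them had an unadjusted p under 0.05, as did 36.8%, 41.3% and 24.4% of all probes.

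Of 6 other known targets of retinoic acid, 2 were above background. Tgm2, a transglutaminase that retinoic acid induces in many cells, had mean ratios of -0.29 ± 0.09 at 3 days and -0.34 ± 0.14 at 7 days (adjusted p = 0.0064 and 0.0021), and its second probe -0.25 and -0.27 (adjusted p = 0.0087 and 0.004, SD, n = 3, limma). At 14 days it was at 0.09 (adjusted p = 0.4). Of the 15 calls at 3 days, 6 held when any single array was left out (Pnpla2, Rbp4, Tgm2, Scarb1, Aldh1a1 and Aldh8a1), and of the 16 calls at 7 days, 9 held.

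**Figure D3:**
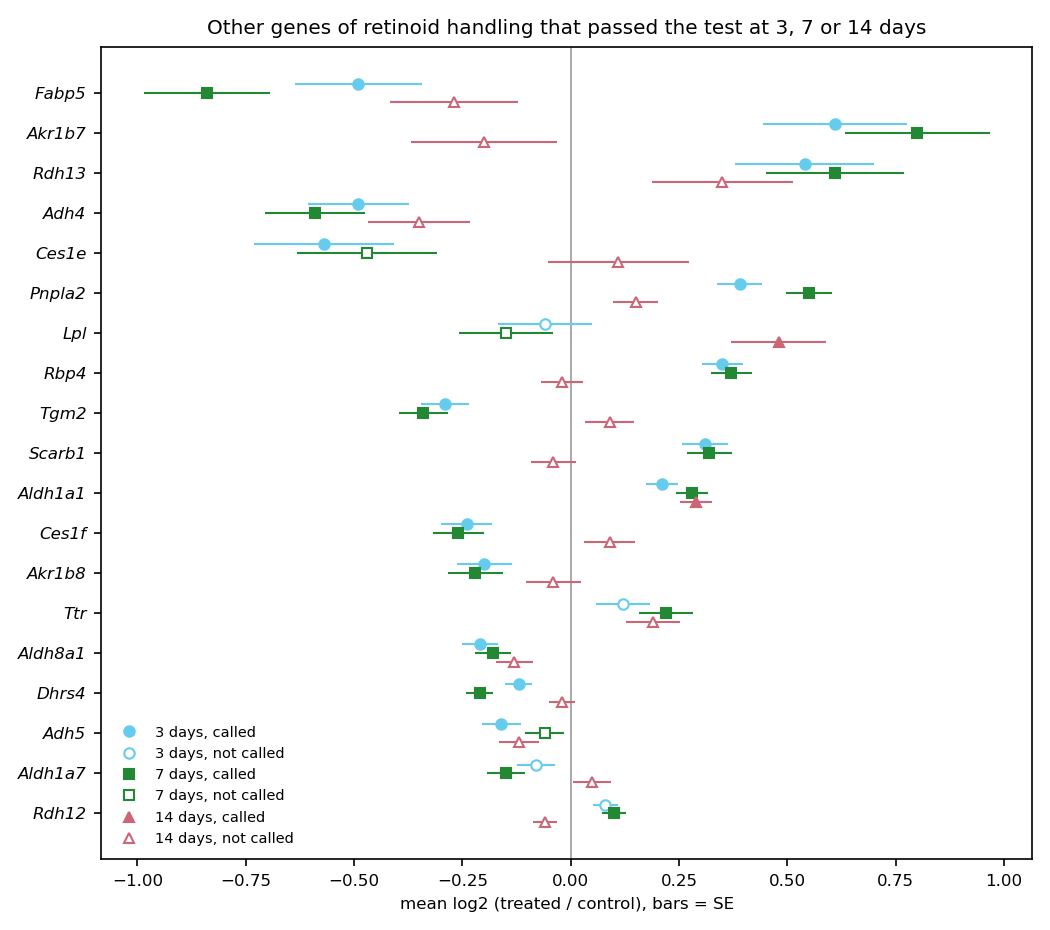
Mean log2 ratio of treated over control signal with its limma SE (n = 3 arrays) at 3, 7 and 14 days for the 19 other genes of retinoid handling called at any of these times, filled where the adjusted p was under 0.05. Pnpla2, Rbp4 and Scarb1 lay at 0.31 to 0.55 at 3 and 7 days, Tgm2 at -0.34 to -0.29, and Aldh1a1 and Lpl were the genes filled at 14 days.

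Lrat is also a marker of hepatic stellate cells, and in whole liver fewer cells of a type and less RNA per cell cannot be told apart. Of the 10 stellate cell markers above background, 3 were called lower at 3 days and 3 at 7 days, and none higher. Of all probes, 11.1% and 14.3% were called lower at these times. The markers called were Lrat itself, Ngfr (-0.50 and -0.46, adjusted p = 0.0041 at both) and Ecm1 (-0.29 and -0.24, adjusted p = 0.021 and 0.036 by limma). Among those not called, Hand2 (0.12 and 0.20) and Hgf (0.14 and 0.06) had positive means. Reln had -0.25 and 0.01, and Dcn, Pdgfrb, Colec11 and Cygb had negative means at both times. The summed signal of the stellate cell markers had a log2 ratio of -0.31 to -0.08 at 3 days, -0.23 to -0.02 at 7 days and -0.20 to 0.05 at 14 days. Des, a defining marker of these cells, was not above background on any array from 3 days on.

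Markers of other cell types were counted in the same way, where 12.3% of all probes were called higher and 11.1% lower at 3 days and 15.3% and 14.3% at 7 days. Of 6 Kupffer cell markers, 3 fell at each of 3 and 7 days (Clec4f, Cd5l and Vsig4, means -0.47 to -0.36), and none was called at 14 days. The others were not called at 3 or 7 days: Adgre1 (-0.18 and -0.31), Timd4 (-0.38 and -0.26) and, with positive means, Marco (0.25 and 0.30). The ratio of the Kupffer sums was -0.45 to -0.33, -0.45 to -0.38 and -0.20 to 0.26 at 3, 7 and 14 days. Hepatocyte markers gave ratios of sums of 0.12 to 0.16, 0.15 to 0.25 and -0.06 to 0.03, with 1 of 8 called higher at 3 days, 3 higher and 1 lower at 7 days, and 1 lower at 14 days. Of 6 endothelial markers 2 were called higher and 1 lower at 3 days, and 1 higher and 2 lower at 7 days. Of the 4 leukocyte markers above background, 1 was called higher and 2 lower at 3 days and 3 lower at 7 days. S100a8 and S100a9 fell at both times, by 0.68 and 1.13 at 3 days and by 0.97 and 1.36 at 7 days. Ptprc had means of -0.40 and -0.70, and Cd3e, the marker called higher, of 0.11 and 0.06. Cholangiocyte, red blood cell and pancreas acinar markers had at most 1 call per time. The part of these cell types in the values of Lrat was not tested.

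**Figure D4:**
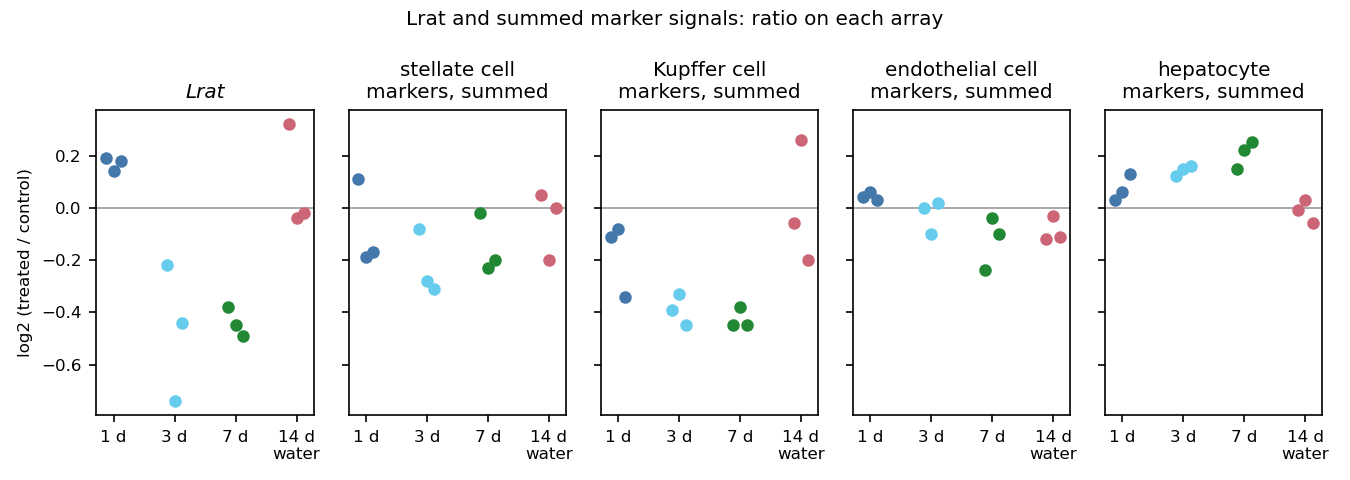
Log2 ratio of treated over control on each array for Lrat and for the summed signals of stellate cell, Kupffer cell, endothelial cell and hepatocyte markers, 3 arrays per group; the stellate list contains Lrat. The Kupffer sums lay at -0.45 to -0.33 on the 3-day and 7-day arrays, the hepatocyte sums at 0.12 to 0.25.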

How the data were processed

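Pooled liver RNA, treated and control, was hybridised to 12 two-color Agilent arrays (44397 features, probe design on mm9 per the file headers), and groups were taken from the sample labels. Whether the gavage days shared control pools is not known, so the number of separate control pools is not known either. The intensity values were deposited by the authors as Feature Extraction processed signals (version 10.10.1 per the labels; 10.7.3.1 on the H2-water arrays and 10.10.1.1 on the others per the file headers), background-subtracted and dye-normalized within each array. The log10 ratio of Cy5 over Cy3 in the deposited scanner files, and the deposited log2 ratio of the authors' value table, hold the same ratios (largest difference 1.4e-06) and the table served as an alternative. The methods scale signals by the total intensity of each array, so scaling each channel to its total served as an alternative.

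Spots marked as outliers were left out, spots of a probe were averaged, and 26761 of 39429 probes (67.9%) were named through RefSeq records. A gene is represented by its brightest probe. Ratios were fitted with limma 3.58.1 in R 4.3.3 over all 12 arrays and tested on probes that exceeded the background of both dyes on every array compared. The fit was run on simulated data with independent arrays, which covers neither shared controls nor a dye bias. The members and gene lists were chosen with earlier results of these data known. Named were the members, the retinoid genes called at 3, 7 or 14 days (at most 20, by size), the Rdh1 neighbours, Rara, Rarg, Rxra and the 5 genes most correlated with Rdh1. Among gavage arrays, deviations of same-numbered arrays from their group means correlated at 0.368 to 0.655. The main fits, including that of 7 minus 3 days, did not use this pairing and took all arrays as independent. The replicate number entered as a block only in an alternative. Slides held 4 arrays at most: all 1-day arrays with 1 3-day array, 2 3-day with 2 7-day arrays, 1 7-day array, and the H2-water arrays on a slide of their own. Array numbers limit the precision. Each pool mixes 3 mice, and p-values measure the spread between pools. Some genes of the lists are not reported here. Alternatives were other scalings, background correction, filters, blocks, the methods' t-test and leaving out each array.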

Additional observations from a re-analysis of the deposited data

Results flagged for a closer look

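The effect after 14 days of H2-water differed from that after 7 days of MgH2, by the limma test of the difference itself, for 1 of the 8 genes other than Rdh1 and for 9 of the 19 further retinoid genes, where 6.61% of all probes were called. The 19 genes had been picked for a call at 3, 7 or 14 days on the same arrays, so their share cannot be read against that of all probes. The adjusted p-values of those 9 do not allow for this choice. Lrat was higher at 14 days by 0.53 (adjusted p = 0.039), Lpl by 0.63 (adjusted p = 0.039), Tgm2 by 0.42 (adjusted p = 0.02), Ces1f by 0.35 (adjusted p = 0.036) and Dhrs4 by 0.19 (adjusted p = 0.033). Akr1b7 (-1.0, adjusted p = 0.036), Pnpla2 (-0.40, adjusted p = 0.019), Rbp4 (-0.39, adjusted p = 0.016), Scarb1 (-0.37, adjusted p = 0.024) and Rdh12 (-0.16, adjusted p = 0.04) were lower at 14 days. None of the 10 calls held when each of the 6 arrays was left out in turn (highest adjusted p per gene 0.065 to 0.14). Agent, route, type of control, duration, slide and software version changed together between these groups and cannot be told apart.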

How the results depend on the processing

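Of the 8 genes other than Rdh1, 4 were called at 3 days and 4 at 7 days. At 3 days the count was 1 in a fit of only the arrays compared, 0 by the methods' t-test after adjustment, 0 in the difference of 3 minus 14 days (added after seeing the data), and 1 to 3 with 1 array left out. At 7 days it was 2 without a filter on dim probes, 2 with only the arrays compared, 0 by the adjusted t-test, 1 in the difference of 7 minus 14 days (added after seeing the data), and 1 to 2 with 1 array left out. At 14 days it was 0, and 1 with normexp and loess. For 14 minus 7 days it was 1, and 0 with only the arrays compared, 0 to 1 with 1 array left out, and 3 with the replicate block (Rdh11, Lrat and Rarb); those numbers correlated at 0.288, 0.233 and 0.035 and were not taken as pairs. The replicate block added Rarb at 7 days, giving 5, and left 4 at 3 days and 0 at 14 days and for 7 minus 3 days. Rdh1 for 14 minus 7 days was -0.12 and turned to 0.40 with normexp and loess. The Aldh1a1 ratio stayed above 0, at 0.18 to 0.39 at 3 days and 0.26 to 0.46 at 7 days in the alternatives that kept all arrays. Its differences of 3 minus 14 days and 7 minus 14 days, -0.08 and -0.01, compare groups and are no change of sign.

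Over all probes, the counts called at 3, 7 and 14 days and for 14 minus 7 days were 4537, 5748, 1804 and 1234, and 454 for 14 minus 3 days. They were 292, 2178, 501, 424 and 22 with only the arrays compared, and 18, 60 and 15 by the adjusted t-test (4104 unadjusted at 14 days). Without a filter on dim probes they were 2430, 8560, 2317, 6635 and 110. With slide as a random block the 14-day count was 2800 and those for 14 minus 7 and 14 minus 3 days 2130 and 1023. The replicate block gave 2488 and 1305 for the latter. Leaving out 1 array gave 2062 to 2949, 3087 to 4007, 438 to 572, 103 to 778 and 8 to 191. With 3 pools a group, limma's calls lean on the spread shared across the 4 groups. The cause of these changes was not tested.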
